A study of Mus musculus with 6 samples.

Results

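The Sox genes that accompany neural cells from progenitor to neuron were followed in cells of the embryonic mouse cortex sorted as radial glia by their surface Prominin1. They were found by symbol in the deposited count table, which holds 52636 genes, and 7 of 7 names matched 1 row each. They are the SoxB1 genes Sox1, Sox2 and Sox3, the SoxB2 gene Sox21, the SoxE gene Sox9 and the SoxC genes Sox4 and Sox11. The sort was made at E12.5 (embryonic day) from embryos of mixed CD1, 129/ola and C57BL6 background. SmadNes embryos were heterozygous for floxed Smad1 and floxed Smad5 and carried Nestin:Cre (Smad1wt/fl;Smad5wt/fl;Nestin:Cre+/0). Control littermates had the same floxed alleles without Cre (Smad1wt/fl;Smad5wt/fl;Nestin:Cre0/0). Smad1 and Smad5 relay signals of bone morphogenetic proteins, and Nestin:Cre acts in neural progenitors and their progeny. Each genotype has 3 pools, called SF3, SF4 or SF5_6, with 1 library of each name per genotype. How many embryos went into a pool is not given in the labels, so a p-value measures only how these pools vary, which may be partly technical.

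Sox proteins share a DNA-binding HMG box and are grouped by its sequence. SoxB1 factors act redundantly to keep neural cells in the progenitor state, while Sox21 counteracts them and favours neuronal differentiation. Sox9 accompanies the change from neuroepithelium to radial glia and later the making of glia. SoxC factors switch on neuronal genes as progenitors leave the cell cycle. In the embryonic cortex the SoxB1 and Sox9 transcripts mark the ventricular zone, and Sox4 and Sox11 are strongest in young neurons.

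Library totals lay between 32997423 and 40744672 expected counts, so each member was supported by at least 1831 counts in every library. The targeted Smad5 stood at 290, 300 and 287 CPM (counts scaled to a library of 1e+06 counts after TMM normalization) in control SF3, SF4 and SF5_6, and at 388, 411 and 373 CPM in the SmadNes libraries of the same names. Smad1 stood at 72.7, 77.8 and 76.1 CPM in controls and at 86.9, 92.9 and 85.7 CPM in SmadNes. In 3 of 3 pairs both genes were higher in the library labelled SmadNes, at an adjusted p of 0.965 for Smad5 by edgeR (0.00757 with the pool name as a block) and 1.28e-08 by DESeq2. A whole-gene count includes exons outside a floxed part and is no check of the deletion, so directions between genotypes rest on the labels. Radial glia markers were present in all libraries (10 of 10, summed level 2176 to 2571 CPM), as were those of neurons (10 of 10, 4577 to 6288 CPM). In such mixed RNA, fewer cells of a type and less transcript per cell cannot be told apart.

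The 7 genes are compact. A single exon is annotated in GENCODE M21 (build GRCm38) for Sox1 (ENSMUSG00000096014.1, chromosome 8, 12395295 to 12400126, plus strand), Sox2 (ENSMUSG00000074637.7, chromosome 3, 34650405 to 34652461, plus), Sox3 (ENSMUSG00000045179.9, chromosome X, 60891366 to 60893430, minus), Sox21 (ENSMUSG00000061517.8, chromosome 14, 118233232 to 118237030, minus), Sox4 (ENSMUSG00000076431.4, chromosome 13, 28948919 to 28953713, minus) and Sox11 (ENSMUSG00000063632.6, chromosome 12, 27334264 to 27342574, minus). Sox9 (ENSMUSG00000000567.5, chromosome 11, 112782224 to 112787760, plus) has 3 exons.

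Upstream sequence is shown for Sox2, Sox4 and Sox11, the 3 members that edgeR called between the SF5_6 pools and each of the other names in the results further on, Sox2 one way and the SoxC pair the other. RefSeq starts were found for 5 of 7 members. Those of the 3 shown differ from the GENCODE bounds above, and most of the Sox1 window, not printed, lies inside the GENCODE exon of Sox1. Each line gives the 250 bases before the RefSeq start on GRCm38.p6, read on the gene's strand, at chr3:34649745-34649994 (plus) for Sox2, chr13:28953700-28953949 (minus) for Sox4 and chr12:27342719-27342968 (minus) for Sox11. Capitals mark matches on either strand to the CCAAT box (CCAAT), to the Sox core letters ACAAAG or ACAATG, to the POU octamer ATGCAAAT or to TATAAA.
Sox2: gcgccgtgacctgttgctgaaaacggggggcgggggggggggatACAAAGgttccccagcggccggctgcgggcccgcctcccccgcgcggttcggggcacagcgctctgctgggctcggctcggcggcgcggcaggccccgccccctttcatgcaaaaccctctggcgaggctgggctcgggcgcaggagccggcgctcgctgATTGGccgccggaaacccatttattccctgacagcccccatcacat
Sox4: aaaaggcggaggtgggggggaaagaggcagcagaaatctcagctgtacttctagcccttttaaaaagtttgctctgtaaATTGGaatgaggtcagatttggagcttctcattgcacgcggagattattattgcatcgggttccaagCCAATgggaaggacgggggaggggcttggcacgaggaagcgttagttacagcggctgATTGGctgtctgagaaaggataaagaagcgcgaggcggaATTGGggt
Sox11: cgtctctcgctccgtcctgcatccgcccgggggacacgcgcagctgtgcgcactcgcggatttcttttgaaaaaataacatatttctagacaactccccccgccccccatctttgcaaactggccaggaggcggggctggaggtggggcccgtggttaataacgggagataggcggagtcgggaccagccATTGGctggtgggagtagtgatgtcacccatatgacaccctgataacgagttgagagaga
The Sox4 window holds 4 CCAAT matches, while the Sox2 and Sox11 windows hold 1 each. The Sox4 match 8 to 4 bases before the RefSeq start lies inside the GENCODE exon of Sox4. Of the windows not printed, that of Sox1 holds 1 and that of Sox21, a gene called in SF5_6 against SF4 alone, holds 0. Of 32817 such windows over all genes 33.8% hold at least 1, and the share with 4 was not counted. The Sox2 window also has 1 ACAAAG match, 206 to 201 bases before the start, and 25.2% of all windows hold one of the Sox letter strings. No window of the 5 held ATGCAAAT (1.6% of all windows) or TATAAA (12.4%). The GC content was 72.0% for Sox2, 58.0% for Sox11 and 50.8% for Sox4, against a median of 52.4%. The matches describe these letters and were not tested as sites.

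The SoxC genes Sox11 and Sox4 had the highest levels of the 13 Sox genes tested. Levels between genes are compared per length, as TPM, computed here from counts and the summed exon length of each gene and scaled to 1e+06 per library. Sox11 averaged 1450 TPM over the 6 libraries and Sox4 1138 TPM. Sox11 was the higher of them in 6 of 6 libraries, though the ranges overlapped across libraries (1229 to 1673 and 752 to 1342 TPM). Sox4 in turn was 4.25-fold above Sox2, the next in order at 268 TPM, and their ranges did not overlap.

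Below them Sox2, Sox12 (239 TPM, the third SoxC gene and not one of the 7) and Sox3 (230 TPM) had overlapping ranges. Sox9 at 132 TPM was 1.74-fold under Sox3 and 1.59-fold over Sox1 at 83.3 TPM, with no overlap on either side. Sox21 was the lowest of the 7 at 61.2 TPM, a level that overlapped with Sox5 (62.4 TPM), a SoxD factor of deep-layer neurons. Among the SoxB1 genes Sox2 lay above Sox1 in 6 of 6 libraries.

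**Figure D1:**
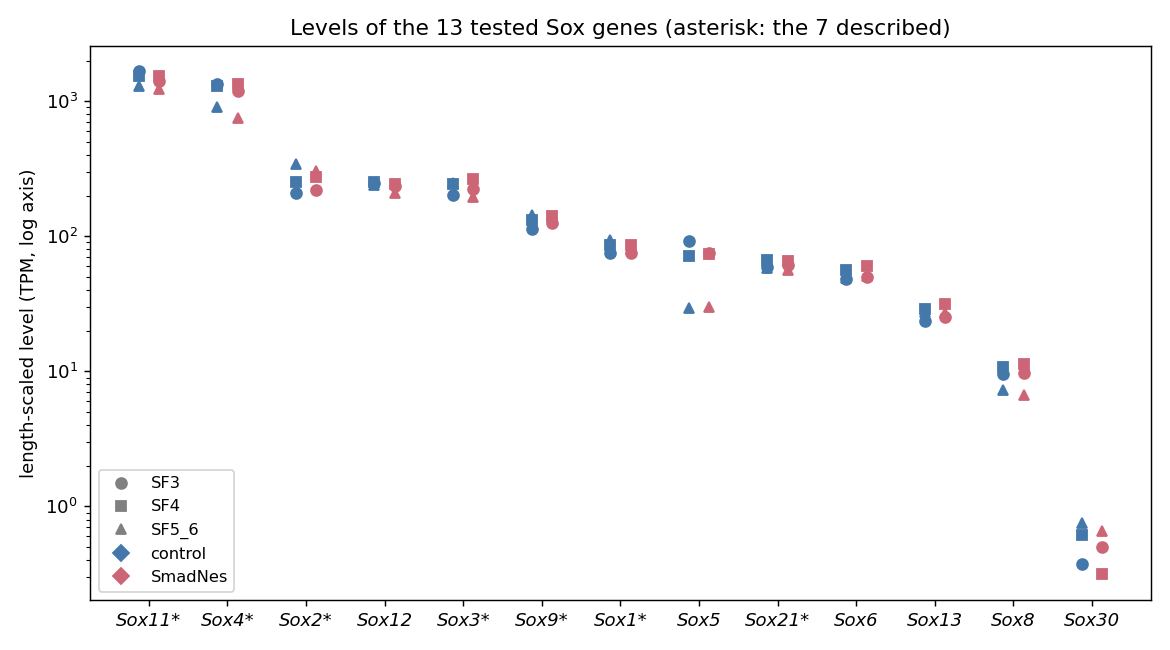
Length-scaled level of the 13 Sox genes that passed the count filter, in each of the 6 libraries (TPM on a log axis). Colour gives the genotype and marker shape the pool name. Sox11 and Sox4 lie between 752 and 1673 TPM, and the other 5 genes of the 7 between 55.9 and 341 TPM.

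In single libraries Sox2 stood at 210, 255 and 341 TPM in control SF3, SF4 and SF5_6 and at 221, 273 and 306 TPM in SmadNes. Sox3 stood at 204, 244 and 247 TPM in controls and at 223, 268 and 194 TPM in SmadNes. Sox2 and Sox3 were thus nearly level in the SF3 and SF4 pools, and Sox2 was clearly ahead in the SF5_6 pools.

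No member passed the test between the genotypes. All 7 passed the filter on low counts, and edgeR's quasi-likelihood test called 0 of 7 over all genes, where 0% of the 16869 genes tested were called. It found 177 genes at an unadjusted p below 0.05, none of them a member. The largest of the 7 log2 differences (SmadNes minus control) was -0.09 for Sox11, and their median was 0.003, against -0.0004 for all genes tested. Adjusted p-values were 1 for each of the 7. DESeq2 called 7 genes (0.0415%) and limma-voom 1 (0.00593%), again with no member among them. With the pool name as a block DESeq2 called 14 genes (0.083%) and limma-voom 8 (0.0474%), and 0 of 7 members. Control and SmadNes libraries overlapped for 7 of 7 members, while 4.77% of all genes tested had groups that did not overlap.

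Sox1 stood at 93.0, 107 and 113 CPM in control SF3, SF4 and SF5_6 and at 95.7, 108 and 97.6 CPM in SmadNes. Only in the SF5_6 pools did its libraries lie apart, and the genotypes overlapped. The means were 104 ± 10.2 and 101 ± 6.85 CPM (SD, n = 3 each), and the log2 difference was -0.05 (SE 0.088, 95% interval -0.27 to 0.16).

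Sox2, the SoxB1 factor used most widely as a marker of neural stem cells, stood at 111, 134 and 173 CPM in controls and at 120, 145 and 157 CPM in SmadNes. In both genotypes SF3 was lowest and SF5_6 highest. The means of 139 ± 31.5 and 141 ± 19.1 CPM gave a log2 difference of 0.01 (SE 0.18, interval -0.42 to 0.45).

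Sox3, the X-linked SoxB1 gene, stood at 108, 129 and 126 CPM in controls and at 121, 143 and 99.9 CPM in SmadNes. The SmadNes libraries enclosed the control range on both sides. Its means were 121 ± 11.1 and 121 ± 21.6 CPM, a log2 difference of 0.003 (SE 0.14, interval -0.33 to 0.34).

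Sox21, the SoxB2 antagonist, stood at 57.8, 64.4 and 54.9 CPM in controls and at 61.6, 64.9 and 52.8 CPM in SmadNes. SF4 was highest and SF5_6 lowest in both genotypes. The log2 difference was 0.02 (SE 0.097, interval -0.22 to 0.25) between means of 59.0 ± 4.86 and 59.8 ± 6.22 CPM.

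Sox9 stood at 121, 141 and 146 CPM in controls and at 136, 150 and 142 CPM in SmadNes. The control SF3 library lay under the other 5, which spanned a narrow band. Means of 136 ± 13.3 and 143 ± 7.09 CPM gave a log2 difference of 0.07 (SE 0.083, interval -0.13 to 0.27), the largest positive one of the 7.

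Sox4 stood at 1656, 1576 and 1075 CPM in controls and at 1508, 1663 and 898 CPM in SmadNes. Both SF5_6 libraries lay far under the other 4. Because of that spread its interval was the widest of the 7, from -0.72 to 0.56 around a log2 difference of -0.08 (SE 0.27), with means of 1435 ± 315 and 1356 ± 405 CPM.

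Sox11 stood at 3575, 3267 and 2674 CPM in controls and at 3081, 3324 and 2544 CPM in SmadNes. The SF5_6 libraries were again the lowest of each genotype. Means of 3172 ± 458 and 2983 ± 400 CPM gave a log2 difference of -0.09 (SE 0.14, interval -0.43 to 0.26).

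**Figure D2:**
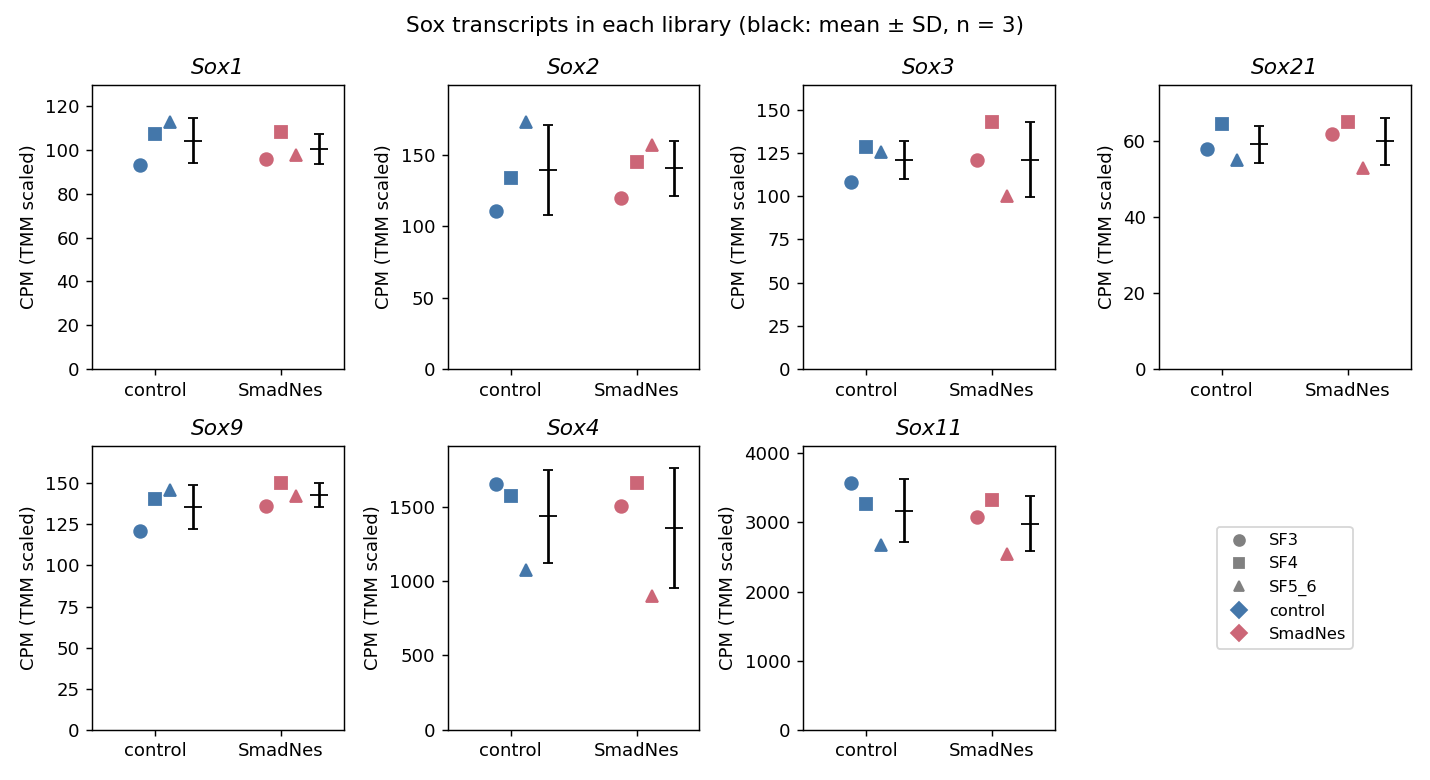
CPM of each of the 7 Sox genes in the 3 control and 3 SmadNes libraries (each axis starts at 0). Marker shape gives the pool name, and the black bar is the mean ± SD of a genotype. The genotypes overlap in every panel, and the SF5_6 libraries are lowest for Sox4 and Sox11 and highest for Sox2.

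Pairing by pool name narrowed the intervals without changing a call. With the name as a block, edgeR called 4 genes (0.0237% of those tested), none of them a Sox gene, and the adjusted p-values of the 7 lay between 0.822 and 0.997. Sox4 then had a log2 difference of -0.11 (95% interval -0.24 to 0.03) and Sox9 one of 0.08 (-0.03 to 0.18). For Sox11 the blocked interval ran from -0.20 to 0.02, for Sox1 from -0.17 to 0.07, for Sox2 from -0.09 to 0.15, for Sox21 from -0.08 to 0.12 and for Sox3 from -0.20 to 0.19. As folds, the 7 blocked intervals lay within 0.848 (the lower bound for Sox4) and 1.14 (the upper bound for Sox3).

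The pairs did not move alike. In the SF5_6 pair 7 of 7 members were lower in SmadNes, with a median log2 difference of -0.14, where 53.2% of all genes were lower and the median was -0.01. In the SF4 pair 0 of 7 were lower, and in the SF3 pair 2 of 7, the SoxC genes Sox4 (-0.13) and Sox11 (-0.21). Sox3 differed most from pair to pair, at 0.16 in SF3, 0.15 in SF4 and -0.33 in SF5_6. Each pair is 1 library against 1, so these values have no replicate error of their own.

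**Figure D3:**
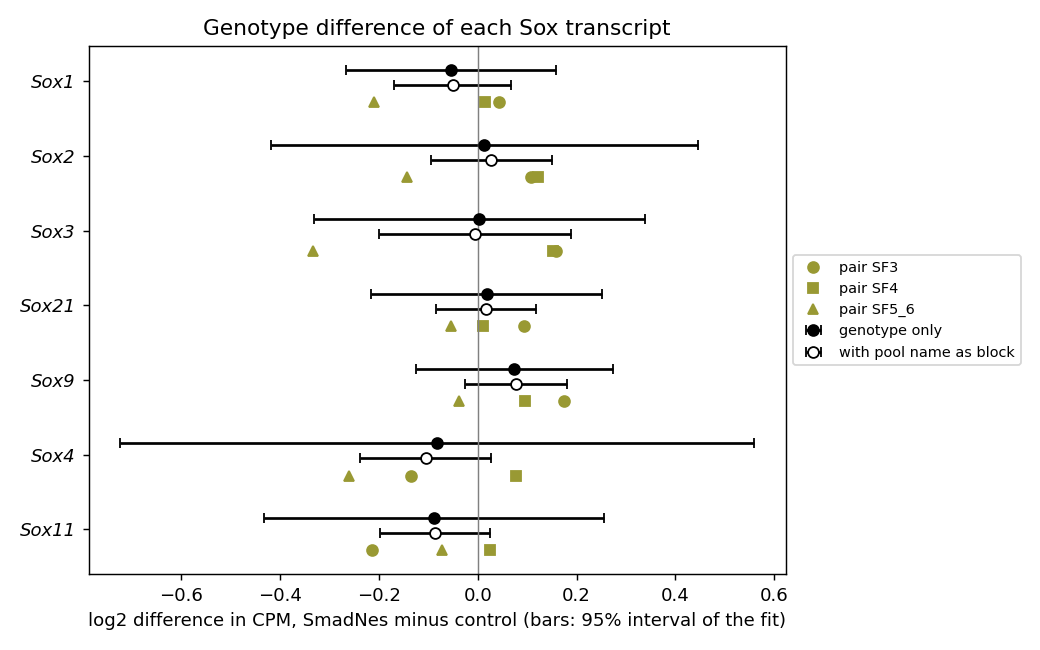
Log2 difference in CPM (SmadNes minus control) of each Sox gene. Filled circles are the fit by genotype alone and open circles the fit with the pool name as a block, each with its 95% interval; coloured markers are the single pairs. All 14 intervals include 0, and the triangles of the SF5_6 pair lie left of 0 for all 7 genes.

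Differences between pools were larger than those between genotypes, and they ran opposite ways for Sox2 and the SoxC genes. In a fit with genotype and pool name, edgeR's test of the name called 4 of 7 members, namely Sox2, Sox21, Sox4 and Sox11, where it called 28.8% of all genes tested. Limma-voom called 4 of 7 (28.9% of all genes) and DESeq2 3 of 7 (18.7% of all genes). The 2 libraries of a name may share litters and handling, so these p-values describe these pools. Sox4 fell 1.61-fold in SF5_6 against SF3 (log2 difference -0.68, SE 0.072, adjusted p 0.00025) and 1.65-fold against SF4 (-0.72, SE 0.072, adjusted p 0.000186). Sox11 fell 1.27-fold against SF3 and 1.26-fold against SF4 (-0.35 and -0.34, SE 0.06 each, adjusted p 0.00311 and 0.00361). Calls in either direction covered 27.4% of all genes against SF3 and 25.1% against SF4, and downward calls 13.9% and 12%. The Sox11 call against SF4 was lost without the SmadNes SF4 library (adjusted p 0.0583), the fold staying in the same direction.

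Sox2 rose 1.43-fold in SF5_6 against SF3 (log2 difference 0.52, SE 0.066, adjusted p 0.000687) and 1.18-fold against SF4 (0.24, SE 0.065, adjusted p 0.0256). Upward calls covered 13.5% and 13.1% of all genes. Both SF5_6 libraries lay above the other 4, a pattern that 23.2% of all genes tested shared. The call against SF4 was lost without control SF4 (0.17, adjusted p 0.163), control SF5_6 (0.11, 0.293) or SmadNes SF4 (0.31, 0.0558), whereas the call against SF3 held under all 11 alternatives run.

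Sox21 fell 1.20-fold in SF5_6 against SF4 (-0.26, SE 0.055, adjusted p 0.00810) and stood at -0.15 against SF3 (adjusted p 0.0775). The first call was lost without SmadNes SF4 (-0.27, adjusted p 0.0640) or SmadNes SF5_6 (-0.21, adjusted p 0.0641), though the difference stayed in the same direction, and DESeq2's test of the name did not call Sox21 (adjusted p 0.0695). Sox4, Sox11 and Sox21 were the 3 members with both SF5_6 libraries below the other 4, which held for 24.8% of all genes tested.

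Sox1, Sox3 and Sox9 did not pass the test of the name (adjusted p 0.096, 0.132 and 0.0612). Sox9 stood at 0.17 in SF5_6 against SF3 (95% interval 0.04 to 0.29, adjusted p 0.0547) and at -0.01 against SF4. Sox1 stood at 0.15 against SF3 and -0.04 against SF4. For Sox3 the SF5_6 libraries disagreed. Against SF3 it was lower without control SF5_6 (log2 difference -0.27, adjusted p 0.0151) and higher without SmadNes SF5_6 (0.22, adjusted p 0.0286). Against SF4 Sox3 stood at -0.27 (adjusted p 0.0973), and it was called without control SF5_6 (-0.52), without control SF4 (-0.39) or with no count filter (-0.29, adjusted p 0.000263). Without SmadNes SF5_6, Sox1 (0.27) and Sox9 (0.25) were called as higher than in SF3, and Sox9 also without SmadNes SF3 (0.24) or with no count filter (0.15, adjusted p 0.0373).

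Between SF3 and SF4 edgeR called no member, against 3.59% of all genes (0.581% higher and 3.01% lower in SF4). The SoxB1 genes, Sox9 and Sox21 all leaned towards SF4. Their log2 differences (SF4 minus SF3) were 0.27 for Sox2, 0.25 for Sox3, 0.19 for Sox1, 0.18 for Sox9 and 0.11 for Sox21. Sox4 stood at 0.04 and Sox11 at -0.01. In a fit chosen after seeing the data that left out both SF5_6 libraries, Sox2 (adjusted p 0.000866), Sox3 (0.00283), Sox1 (0.027) and Sox9 (0.0362) were called as higher in SF4. The same 4 were called when genes with low counts were kept in or when SmadNes SF5_6 was left out. Sox1, Sox2 and Sox3 were called without control SF5_6, and Sox2 without control SF4. DESeq2 called Sox2 in the full set of libraries (0.27, adjusted p 0.0245). The fit without SF5_6 called 7.39% of all genes.

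**Figure D4:**
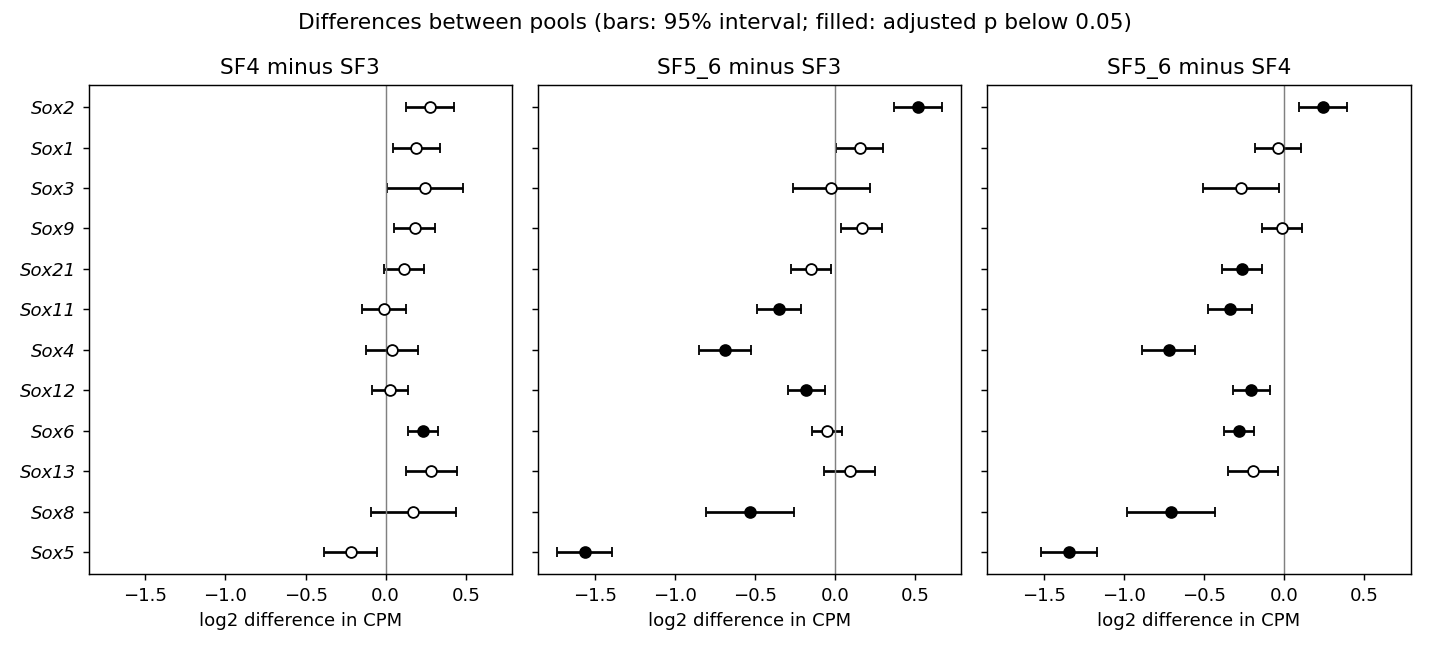
Log2 difference in CPM between pool names for the 7 members and 5 other Sox genes, from the fit with genotype and name (bars are 95% intervals, filled circles have an adjusted p below 0.05). In both panels with SF5_6, Sox2 lies right of 0 and Sox11, Sox4, Sox12, Sox8 and Sox5 lie left of it, all with filled circles. Sox21, Sox3 and Sox6 also lie left of 0 in both, filled only for Sox21 and Sox6 against SF4.

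The balance of SoxC to SoxB1 transcripts was ordered by pool name in both genotypes. Counts of Sox4, Sox11 and Sox12 together were 17.7, 13.9 and 9.74 times those of Sox1, Sox2 and Sox3 in control SF3, SF4 and SF5_6. In SmadNes they were 14.5, 13.3 and 10.4 times. SF3 was highest and SF5_6 lowest in both, and the genotypes overlapped (13.8 ± 3.96 and 12.7 ± 2.12, SD, n = 3 each). With counts scaled by gene length the ratios were 6.68, 5.26 and 3.59 in controls and 5.48, 4.99 and 3.77 in SmadNes. No test was made of this ratio, since its genes were chosen with earlier results known.

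**Figure D5:**
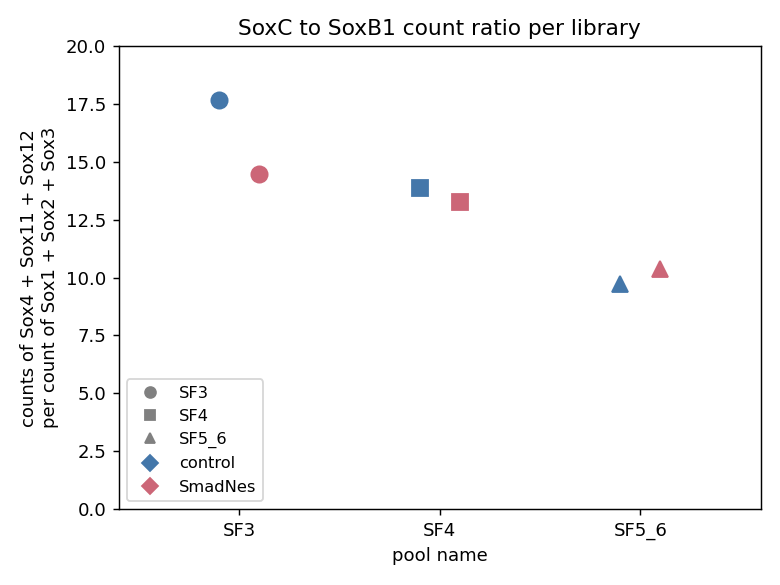
Ratio of summed SoxC counts (Sox4, Sox11 and Sox12) to summed SoxB1 counts (Sox1, Sox2 and Sox3) in each library, by pool name. Colour gives the genotype. Values run from 17.7 in control SF3 to 9.74 in control SF5_6.

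Cell type markers moved between the same pools. Summed neuronal markers stood at 4577 and 4671 CPM in the SF5_6 libraries and at 5312 to 6288 CPM in the other 4. Markers of intermediate progenitors, which lie between radial glia and neurons, stood at 1169 and 1246 CPM against 1781 to 1924 CPM. Radial glia markers stood at 2514 and 2571 CPM against 2176 to 2403 CPM, and cycling genes at 2148 and 2298 CPM against 1713 to 2054 CPM. Of the neuronal markers 7 of 10 fell in SF5_6 against SF3 and 0 rose, where 13.9% of all genes fell and 13.5% rose. Of those of intermediate progenitors 6 of 8 fell and 0 rose, while 6 of 10 radial glia markers rose and 0 fell. Against SF4, where 12% of all genes fell and 13.1% rose, 5 of 10 neuronal markers fell and 1 rose, 8 of 8 of the intermediate progenitor markers fell, and 3 of 10 radial glia markers rose and 1 fell.

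Other tissue differed too. Ventral telencephalon markers summed to 124, 76.8 and 280 CPM in control SF3, SF4 and SF5_6. In SmadNes they summed to 71.7, 72.5 and 200 CPM, lower in each pair. Of these 10 markers 0 had a positive genotype difference (median -0.67), and edgeR called 0 (0% of all genes). In SF5_6 against SF3, 8 of 10 rose and 0 fell (13.5% and 13.9% of all genes), and Lhx6 did not rise. Mesenchyme and cartilage markers summed to 1192 and 1446 CPM in SF5_6 against 415 to 988 CPM, and erythroid genes to 644 and 1091 CPM against 115 to 376 CPM. The erythroid genes did not move as one. Of 7 tested, 5 rose and 1 fell in SF5_6 against SF3 (13.5% and 13.9% of all genes). Hbb-bs stood at 32.8 and 34.1 CPM in control and SmadNes SF5_6, against 78.2 and 67.8 CPM in SF3. The cartilage marker Matn1 was at 0 in at least 1 library, and Acan reached at most 0.463 CPM. Neural crest and glial precursor markers summed to 63.6 and 64.9 CPM against 23.5 to 43.4 CPM, most of it Pdgfra (44.5 CPM in each SF5_6 library). Microglia markers summed to 13.8 and 15.7 CPM in the SF4 libraries and to 61.9 to 87.1 CPM in the others. Endothelial markers summed to 17.1 to 23.2 CPM, most of it Kdr. Of 5 tested, 3 were higher in SF5_6 than in SF4, where 13.1% of all genes were. Against SF3, 0 of the 5 rose and 0 fell (13.5% and 13.9% of all genes). The part of these cells in the Sox differences was not tested.

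The other SoxC gene, Sox12, moved with Sox4 and Sox11. It stood at 283, 290 and 264 CPM in controls and at 278, 283 and 233 CPM in SmadNes, and fell in SF5_6 against SF3 (-0.18, adjusted p 0.0297) and SF4 (-0.20, adjusted p 0.0173). The SoxD gene Sox5 had the largest pool difference of the 13 tested Sox genes, at 343, 264 and 105 CPM in controls and 286, 276 and 108 CPM in SmadNes. It was 2.95-fold lower in SF5_6 than in SF3 and 2.54-fold lower than in SF4 (adjusted p 7.83e-06 and 1.10e-05). Sox6, a SoxD gene of dorsal progenitors, stood at 183, 215 and 180 CPM in controls and 196, 231 and 187 CPM in SmadNes. It rose in SF4 against SF3 (0.23, adjusted p 0.0183) and fell in SF5_6 against SF4 (-0.28, adjusted p 0.00143). Of 12 other Sox genes 6 were tested, edgeR called 0 of them by genotype (0% of all genes), and 5 passed its test of the pool name (28.8% of all genes).

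The remaining tested members of the family had the lowest length-scaled levels of the tested Sox genes. Sox8, a SoxE gene, stood between 5.19 and 9.10 CPM and fell in SF5_6 against SF3 (-0.53, adjusted p 0.0125) and SF4 (-0.70, adjusted p 0.00314). Sox13 stood between 26.0 and 34.9 CPM and Sox30 between 0.243 and 0.558 CPM. The other 6 did not pass the filter. Sox10, the SoxE gene of neural crest and oligodendrocytes, had 5, 10 and 18 counts in control SF3, SF4 and SF5_6 and 2, 4 and 18 counts in SmadNes. Sox14, a SoxB2 gene of the diencephalon, had 5, 1 and 70 counts in controls and 0, 4 and 35 counts in SmadNes, so that its counts lay almost wholly in the SF5_6 pools. A count of 0 allows up to 3 counts, or 0.0789 CPM in SmadNes SF3. The SoxF genes of endothelium had at most 8 counts (Sox7), 5 counts (Sox17) and 14 counts (Sox18), and Sox15 at most 4 counts.

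Noncoding genes lie over or beside most members. Sox2 sits inside Sox2ot on the same strand without sharing exon sequence, and Sox2ot stood at 21.7, 22.4 and 38.3 CPM in controls and at 18.1, 23.0 and 30.9 CPM in SmadNes. Like Sox2 it rose in SF5_6, 1.74-fold against SF3 and 1.52-fold against SF4 (adjusted p 0.000406 and 0.0016). Sox1 sits inside Gm5607, which GENCODE M21 names Sox1ot, also with no shared exon bases. Gm5607 stood at 12.4, 8.19 and 40.1 CPM in controls and at 6.08, 6.49 and 19.9 CPM in SmadNes. It rose 3.24-fold in SF5_6 against SF3 (adjusted p 9.25e-05), while Sox1 itself was not called. Gm5607 was lower in SmadNes in 3 of 3 pairs, with a log2 difference of -0.90 (SE 0.73) that edgeR did not call (adjusted p 1, and 0.183 with the block). With the block DESeq2 did call it (adjusted p 0.000506), and limma-voom gave an adjusted p of 0.0581.

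Sox4 shares 2616 exon bases with Gm26735 on the opposite strand, and Sox21 shares 713 with Gm4675. The authors quantified with a setting for stranded libraries, per the labels' protocols. Gm26735 stood between 4.96 and 8.86 CPM and fell in SF5_6 against both other names (-0.57 against SF3 and -0.75 against SF4, adjusted p 0.0131 and 0.00358), the direction of Sox4. Gm4675 stood at 1.97, 1.84 and 1.79 CPM in controls and at 1.24, 1.55 and 1.21 CPM in SmadNes, without overlap, at an adjusted p of 1. Sox3 and Sox9 have Gm14662 and BC006965 nearby, both at or under 1.01 CPM. Gm25239, a miRNA gene within Sox1, and Gm27611 near Sox2 had 0 counts in all libraries.

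Genes tied to Sox function were followed in the same comparisons. By genotype edgeR called 0% of all genes tested, so no list could hold a call. Of 20 SoxB1 partners and progenitor targets 0 were called by genotype (median log2 difference 0.02). The 4 with the smallest p were the POU factor Pou3f1 (26.9 ± 4.56 and 19.2 ± 2.97 CPM, log2 difference -0.49), the chromatin remodeller Chd7 (496 ± 50.3 and 556 ± 34.5 CPM), Pou3f2 (82.4 ± 11.2 and 72.5 ± 13.5 CPM) and the Notch effector Hes1 (28.7 ± 4.88 and 31.8 ± 3.40 CPM). In SF5_6 against SF3, 11 of the 20 rose and 1 fell (13.5% and 13.9% of all genes), with a median of 0.31 against 0.003 for all genes. Hes1 (0.38) and Pou3f2 (0.35) were among those that rose. Named after their values were seen, the largest rises were those of Fgf15 (2.63) and Six3 (1.98), and Pou3f3 (-0.34) was the 1 that fell. Six3 patterns the ventral and anterior forebrain, and the ventral markers given above moved with it. Against SF4, 9 rose and 5 fell (13.1% and 12% of all genes). Among those that fell were Pax6 (-0.16) and Lhx2 (-0.30), which pattern the dorsal cortex, while Gli3 rose (0.20, edgeR adjusted p 0.0318). These genes were also named after their values were seen. Against SF3 edgeR called neither Pax6 (0.02, adjusted p 0.793) nor Lhx2 (-0.09, adjusted p 0.216).

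Of 16 SoxC partners and targets 0 were called by genotype (0% of all genes), with a list median of -0.03. The smallest p-values were those of Tubb3 (903 ± 54.8 and 848 ± 30.6 CPM), Nrcam (124 and 114 CPM on average), Pou3f2 and Elavl3 (564 ± 58.4 and 519 ± 60.9 CPM). In SF5_6 against SF3, 9 of the 16 fell and 1 rose (13.9% and 13.5% of all genes; median -0.32). Against SF4, 9 fell and 2 rose (12% and 13.1% of all genes). Elavl3, an RNA-binding protein of neurons, fell in both (-0.32 and -0.22). Named after their values were seen, the guidance receptors Nrp1 (-1.31) and Plxna2 (-0.98) fell most against SF3. The list did not move as one, since the neuronal tubulin Tubb3 (-0.04, adjusted p 0.586) and Map2 (-0.08, 0.339), the latter also named after its values were seen, were not called.

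Of 14 Sox9 partners and targets 0 were called by genotype (0% of all genes), with a list median of 0.02. The smallest p-values belonged to Tnc (12.9 ± 2.51 and 9.72 ± 2.10 CPM), Zcchc24 (log2 difference 0.19), the glutamate transporter Slc1a3 (70.2 ± 1.35 and 68.5 ± 3.50 CPM) and Col9a1 (0.869 ± 0.42 and 0.691 ± 0.31 CPM). In SF5_6 against SF3, 5 of the 14 rose and 4 fell (13.5% and 13.9% of all genes), and against SF4, 5 rose and 6 fell (13.1% and 12%). Those that fell against SF3 were the nuclear factor I genes Nfia (-0.67), Nfib (2654 CPM on average in SF3 and 1324 in SF5_6) and Nfix (-1.41) and Mmd2 (-0.82), a gene that Sox9 and Nfia control together in the spinal cord. These 4 were named after their values were seen. Sox9 itself stood at 0.17 in that comparison, uncalled.

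Genes with the most similar pattern over the 6 libraries were sought among 9690 protein-coding genes that averaged 10 CPM or more, by the root mean square difference of log2 CPM after centring each gene on its own mean. For Sox11 they were Olfm1 (0.012), Map2k6 (0.021) and 4931414P19Rik (0.022), and for Sox4 Pam (0.046), Tecpr1 (0.060) and Rtn4rl2 (0.061). For Sox2 they were Rassf4 (0.025), Zfp36l1 (0.030) and Arfgef3 (0.031), and for Sox9 the Notch ligand Dll1 (0.021), Myo1e (0.023) and Nup210 (0.025). Sox21 was nearest to Pitpnm2 (0.016), Zfp609 (0.019) and Iqsec1 (0.020), and Sox1 to Tmem98 (0.030), Otud7b (0.036) and Ccdc61 (0.037). Sox3 had the loosest neighbours, H1fx, Pnpla2 and Garem1 (0.063 to 0.064). Small values mean close levels over 6 libraries after centring, and many genes share the spread between pools. The measure is not scaled, so genes that vary little also give small values. Around its own mean Sox1 spread by 0.104 and Sox9 by 0.101, against 0.343 for Sox4.

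By the same measure the nearest members to each other were Sox1 and Sox9 (0.068), followed by Sox3 and Sox21 (0.109). Sox4 was nearest to Sox11 (0.181), but Sox11 was nearer to Sox21 (0.121). Sox4 varied more than Sox11 (highest over lowest library 1.85-fold, against 1.41-fold). The most distant members were Sox2 and Sox4, at 0.526. Over the 6 libraries Sox9 was the steadiest of the 7 (coefficient of variation 7.40%), then Sox1 (7.87%), Sox21 (8.44%), Sox3 (12.7%), Sox11 (12.9%), Sox2 (16.7%) and Sox4 (23.4%).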

How the data were processed

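mRNA of 6 sorted pools was sequenced with a stranded kit, per the labels' protocols. The authors aligned reads with STAR 2.5.3a and made expected counts per gene with RSEM 1.3.0 and GENCODE annotation, per the submitters' processing notes and the labels, and the deposited expected counts are whole numbers. Genotype comes from the sample titles, and 0 value columns were left unused. edgeR 4.0.16 in R 4.3.3 (TMM, filterByExpr, quasi-likelihood test, Benjamini-Hochberg adjustment over all 16869 genes kept, called under 0.05) compared genotypes without a block. The same tool tested the pool name with genotype as a term. DESeq2 1.42.0, limma-voom 3.58.1, RLE size factors, no count filter and leaving out libraries were the alternatives. Log2 CPM of single libraries used a prior count of 2. Deviations from the group means correlated at 0.493, 0.697 and 0.724 between libraries of the same name, so the names pair the libraries. Between others they correlated at most at -0.0582. Centring within a genotype pushes those values down once the same-name ones are positive, so they are no separate support. Lengths came from GENCODE M21 (52403 of 52636 genes matched by ID), and upstream windows from RefSeq (5 of 7 members matched).

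The members and lists were chosen with earlier results of these data known. Named genes were the members, Smad1, Smad5, the other Sox genes, genes overlapping a member or starting within 5000 bases, up to 4 genes a list with the smallest genotype p, and 3 of most similar pattern for each member. Depth was 32997423 to 40744672 counts a library, where 3 counts equal 0.0744 to 0.0910 CPM. Intervals of the edgeR fit by genotype alone cover the spread between pools. Those of the fits with the pool name cover only the spread left after name and genotype are taken out.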

Additional observations from a re-analysis of the deposited data

How the results depend on the processing

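No member was called between genotypes under any of 16 alternatives. The count of genes called, 0 by edgeR, was 4 with the replicate block, 7 by DESeq2, 14 by DESeq2 with the block, 1 by limma-voom, 8 by limma-voom with the block, and 10, 48 and 149 with the block after leaving out the pair SF3, SF4 or SF5_6. Of 112 recomputed genotype differences of members 85 kept their direction and 27 changed it. Sox3 became -0.00587 with the replicate block, -0.00122 by DESeq2, -0.0117 by DESeq2 with the block, -0.00884 by limma-voom, -0.00268 by limma-voom with the block, -0.00124 with RLE size factors and -0.000345 without a filter. With the block, leaving out pair SF3 gave -0.00955 for Sox2, -0.0855 for Sox3 and -0.0194 for Sox21, leaving out SF4 gave -0.0213 for Sox2 and -0.0888 for Sox3, and leaving out SF5_6 gave 0.0280 for Sox1. Leaving out 1 library at a time moved the genotype difference of Sox2 from -0.13 to 0.19, Sox3 from -0.13 to 0.12, Sox21 from -0.045 to 0.099, Sox9 from -0.0036 to 0.12, Sox4 from -0.26 to 0.14 and Sox11 from -0.20 to 0.014. The cause was not tested.

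The pool name called 3161 genes by DESeq2, and 1250 when both SF5_6 libraries were left out, a fit with fewer names to compare. Of 238 name differences of members 199 kept their direction and call, 25 gained a call, 6 lost it and 8 changed direction. Without 1 library, SF4 minus SF3 ran from -0.10 to 0.17 for Sox4 and from -0.11 to 0.086 for Sox11, SF5_6 minus SF3 from -0.27 to 0.22 for Sox3, and SF5_6 minus SF4 from -0.16 to 0.079 for Sox1 and from -0.10 to 0.072 for Sox9. The replicate block changed no call of a member. Each member had at least 1831 counts in every library, and the effect of depth on the calls was not tested.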
